A study of Rattus norvegicus with 6 samples.

Results

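Nuclear genes of oxidative phosphorylation encode most subunits of the 5 enzyme complexes of the inner mitochondrial membrane, and they were followed here in single cells of rat spinal cord before and after crush injury. Members were all rows whose symbol starts with Nduf followed by a, b, c, s or v, with Sdha to Sdhd, or with Uqcr, Cox4 to Cox8 or Atp5, leaving out names marked as pseudogenes. The rule found 93 of 28615 gene names in the time course and 96 of 25199 rows in the injected cords, and no expression value entered it. Of the 93, 36 belong to complex I, 4 to complex II, 8 to complex III, 18 to complex IV and 17 to complex V. Ndufa4 and its paralog Ndufa4l2 were kept as a pair of their own, because the Ndufa4 protein is now counted with complex IV, and 8 Ndufaf genes encode assembly factors of complex I rather than subunits.

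Electrons from NADH enter the chain at complex I and those from succinate at complex II. They pass through complex III and cytochrome c to oxygen at complex IV, and complexes I, III and IV pump the protons that drive ATP synthesis by complex V. A small set of subunits is encoded in the mitochondrial genome, so the nuclear and mitochondrial genes must be expressed together to build complexes I, III, IV and V. Several complex IV subunits come in tissue-specific isoforms, and microglia and macrophages are known to shift between oxidative and glycolytic metabolism when they are activated.

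All animals were SD rats of 6-8 weeks, and each condition used 5 animals. Cord tissue was a 5-mm piece around the lesion, dissociated with collagenase and trypsin and passed through a 40-µm strainer, with red cell lysis. The 4 time-course libraries were an intact cord and cords 1, 3 and 7 days after crush at thoracic level 10. The other 2 libraries came from crushed cords injected at day 3 at 5 sites, 1 µL a site, with the drug labelled MPSS at 10 mg/ml in PBS or with PBS alone, and collected 2 weeks after injury. Titles mark these 2 libraries as re-analysed from another series. The treatment label of the intact library also reads crush injury, and its title was followed. The labels name a version 3 reagent kit beside a version 2 bead kit for every library. Each group is 1 library, and whether its animals were pooled is not stated in the labels, so no difference below has a replicate check and no test or p-value is given. The time-course files use mouse-style gene names although the labels state rat, and the levels of the 2 sets of libraries were never compared.

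Cells were assigned to classes by marker genes. Kept cells numbered 1377 to 9263 a library, with median depths of 3090 to 10417 unique molecular identifiers (UMIs, one per captured mRNA molecule) a cell, and pairs of libraries shared 5 to 91 cell barcodes. Between 34 and 834 cells a library met no class. Members held 2.32% of all UMIs in the intact library, 2.72% at day 1, 2.70% at day 3, 2.34% at day 7, 2.86% after PBS and 2.90% after MPSS. A UMI was found for 90 of the 93 members in the intact and day 1 libraries, 91 at day 3 and 92 at day 7. Cox8b and Cox8c, which encode the heart-type and a testis-type form of the smallest complex IV subunit, were at 0 in the intact, day 1 and day 3 libraries. Cox7b2 was at 0 in every library but that of day 3. In the injected cords 92 of the 96 rows had a UMI in each library. Cox7b2, Cox8c and Ndufa1 were at 0 in both. Cox8b had 0 UMIs after PBS and 2 after MPSS, and Atp5pb had 1 and 0. Ndufa1 and Atp5pb had at least 2070 and 2404 UMIs in each time-course library. Whether the injected-cord files count these genes fully was not tested. Levels are UMI counts of a gene scaled to 1000000 UMIs of a class (CPM) with exact Poisson 95% intervals, and ratios have exact binomial 95% intervals, all of which cover counting error only. A gene is called higher or lower where its CPM differed at least 1.5-fold, its interval excluded 1 and both sums together held at least 50 UMIs. UMIs are not corrected for transcript length, so levels are compared between cells and libraries and not between genes.

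The gates can be read against their own lists. Microglia-gated cells carried the summed microglia markers at 9786 CPM in the intact cord, 1950 at day 1, 4328 at day 3 and 3498 at day 7, and the macrophage list at 97.7, 751, 615 and 443 CPM. In cells gated as macrophage or monocyte, the macrophage list stood at 7327, 10037, 3797 and 2464 CPM and the microglia list at 434, 126, 255 and 486 CPM. The intact gate of this class holds only 56 cells. Microglia numbered 803, 1346, 2844 and 3601 cells with median depths of 3259, 11457, 7205 and 3805 UMIs. The endothelial list in microglia-gated cells was 736 CPM in the intact cord and 147, 132 and 178 CPM after injury. These marker levels and depths move with the results for microglia, and their part in them was not tested beyond the depth window given further on.

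Microglia had the largest change in summed member level of the 4 lineages compared with the intact library at days 1 and 3. At day 7 ependymal cells changed about as much as microglia on the CPM scale alone. Scaling by TMM factors adds 0.65 to the microglial log2 ratio there and 0.03 to the ependymal one. The microglial sum was 17222 CPM in the intact cord, 29347 at day 1, 24575 at day 3 and 20846 at day 7. Relative to the intact library these are ratios of 1.70 (95% interval 1.69 to 1.72), 1.43 (1.41 to 1.44) and 1.21 (1.20 to 1.22). In macrophages or monocytes the sum was 25522, 25320, 27311 and 23126 CPM, with ratios of 0.992, 1.07 and 0.906. Endothelial cells, which line the vessels, had 25300, 26256, 28418 and 28145 CPM, and ependymal cells, which line the central canal, had 27449, 26700, 29269 and 33373 CPM. Within each library, microglia stood at 0.675 of the macrophage level in the intact cord, 1.16 at day 1, 0.900 at day 3 and 0.901 at day 7. Over endothelial cells of the same library the ratio was 0.681, 1.12, 0.865 and 0.741. The plot of summed levels by class shows the microglia of the intact cord below every other class but neutrophils.

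**Figure D1:**
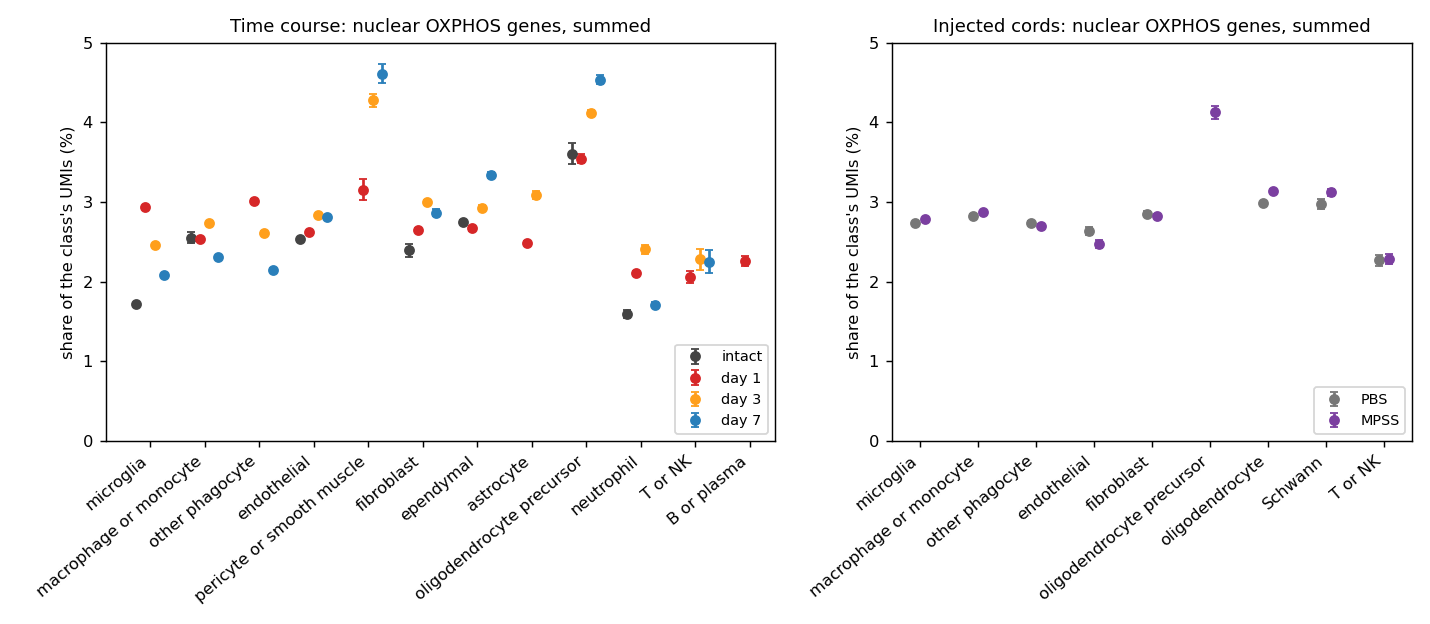
Summed level of the nuclear oxidative phosphorylation genes as a percent of each class's UMIs (y axis; CPM divided by 10000), for each marker-gated class with at least 20 cells (x axis), with 1 point a library and exact Poisson 95% intervals. Microglia go from 17222 CPM in the intact library to 29347 at day 1, while the PBS and MPSS points of a class lie close together.

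The remaining classes had fewer cells and are given as levels. Cells gated as pericyte or smooth muscle, the contractile cells of the vessel wall, had 31514, 42755 and 46128 CPM at days 1, 3 and 7 in 34, 92 and 63 cells. Oligodendrocyte precursors had 36069, 35452, 41137 and 45367 CPM in 27, 60, 164 and 206 cells. Their level over endothelial cells of the same library was 1.43, 1.35, 1.45 and 1.61, above 1 in all 4 libraries. Pericytes stood at 1.20, 1.5 and 1.64 times the endothelial level. Neutrophils, which rely largely on glycolysis, had 15967, 21109, 24049 and 17113 CPM.

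The rise in microglia was spread over many members. At day 1, 53 of the 88 members tested were higher and 3 lower, where 25.4% of all genes tested were higher and 29.2% lower. At day 3, 24 of 89 were higher and 2 lower, against 14.3% and 32.9% of all genes. At day 7, 9 of 88 were higher and 9 lower, against 9.02% and 43.1% of all genes, so the share that was higher is near the background by then. The members' median log2 ratio was 0.75, 0.46 and 0.15, beside medians of -0.06, -0.31 and -0.51 over all genes. The median gene of these cells thus had a lower CPM after injury. Scaling by TMM factors adds 0.37, 0.50 and 0.65 to every microglial log2 ratio of days 1, 3 and 7, 0.37 to 0.67 to those of macrophages, 0.10 to 0.21 to those of endothelial cells and 0.03 to 0.09 to those of ependymal cells. Under TMM factors 73 members were higher at day 3 and 59 at day 7, and 0 were lower at both. The shares of all genes called under TMM factors were not counted, so these counts have no background beside them. In cells of 2000 to 6000 UMIs, a window chosen after seeing the data, the log2 ratio of the microglial sum was 0.81, 0.24 and 0.22, beside 0.77, 0.51 and 0.28 over all microglia. At day 3 the ratio was thus smaller in the window, and at day 1 it was as large. Median depths of microglia at days 1 and 3, 11457 and 7205 UMIs, lie above the window, which thus leaves out most of these cells. Ribosomal protein genes took 12% of UMIs in the intact library and 19% to 19.4% in the injured ones, and their part alone in these ratios was not tested. Leaving ribosomal protein and mitochondrially encoded genes together out of the totals gave 0.91, 0.65 and 0.38.

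By complex, the microglial ratios differed. Complex V, the ATP synthase, had 4639 CPM in the intact cord, 8922 at day 1, 7051 at day 3 and 5664 at day 7, and 16 of its 17 members were higher at day 1. Complex III had 1797, 3177, 2708 and 2400 CPM, and complex IV had 4642, 7606, 6906 and 6094 CPM. Complex I had 5270, 8229, 6832 and 5887 CPM, and 16 of its 36 members were higher at day 1. Complex II, which also serves the citric acid cycle, had 392, 540, 455 and 352 CPM. The ratios to the intact library at days 1, 3 and 7 were 1.92, 1.52 and 1.22 for complex V and 1.38, 1.16 and 0.897 for complex II. Within complex I, the 7 core subunits that hold the electron-carrying centres had ratios of 1.39, 1.11 and 0.865, and the 29 accessory subunits had 1.59, 1.32 and 1.15. The Ndufaf assembly factors had 236, 328, 207 and 176 CPM. Their ratio was 1.39 at day 1, 0.878 at day 3 and 0.744 at day 7. The TMM shifts of 0.50 at day 3 and 0.65 at day 7 are larger than these falls of the assembly factors, complex II and the core subunits, so the direction of each holds only on the CPM scale.

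**Figure D2:**
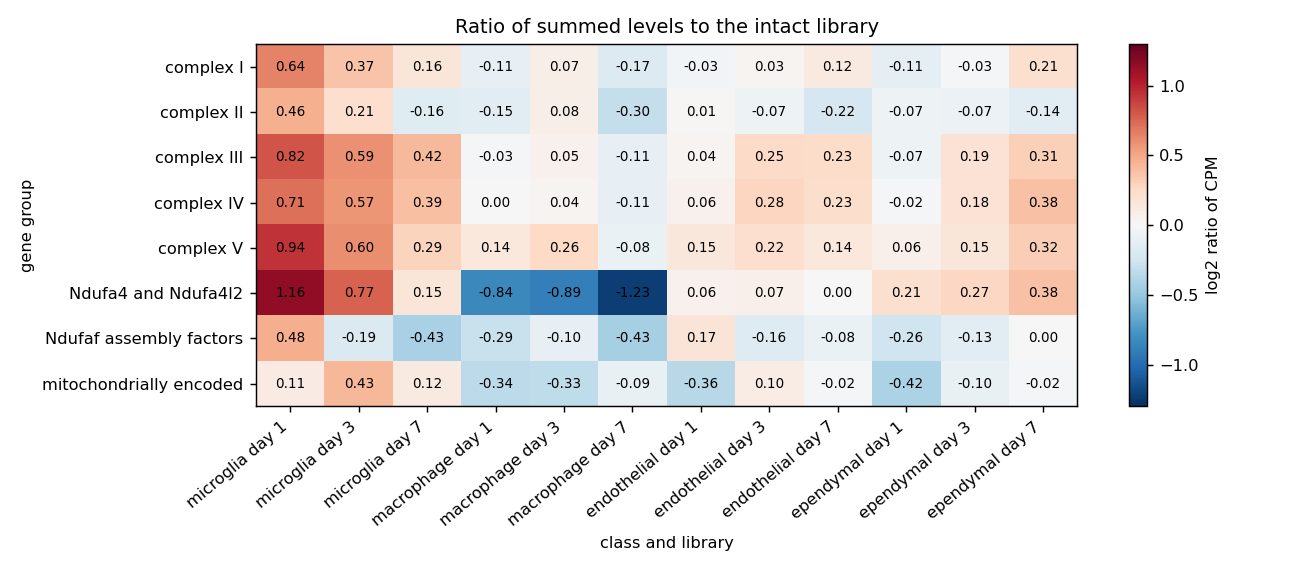
Log2 ratio of the summed CPM of each complex or gene group (rows) to the intact library, for 4 marker-gated classes at days 1, 3 and 7 (columns), with the value printed in each cell. Microglia at day 1 have values from 0.46 for complex II to 0.94 for complex V, and the macrophage column rests on 56 intact cells.

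Single members differed in when they were high in microglia. Atp5g1, 1 of 3 genes for the same ring subunit of the ATP synthase, had 203, 886, 289.8 and 243 CPM in the intact, day 1, day 3 and day 7 libraries. Its day 1 ratio of 4.37 was the highest of the members named, and it was called in neither direction at days 3 and 7. Atp5g3, which encodes the same ring subunit, had 84.6, 271, 291 and 195 CPM. Its ratios were 3.21, 3.43 and 2.30, so it stayed higher through day 7. Cox5a, a subunit of complex IV, had 149, 507, 318 and 201 CPM. Ndufa12, an accessory subunit of complex I, had 115, 407, 146 and 124 CPM, and Ndufb6, another, had 65.5, 198, 106 and 85.3 CPM. Both were higher at day 1 and called in neither direction at day 7. Ndufa1, a small accessory subunit, went the other way in time, with 144, 186, 307 and 312 CPM. Uqcrq, a small subunit of complex III, had 223, 665, 428 and 370 CPM. The 9 members called higher at day 7 were Atp5g3, Atp5mpl, Ndufa1, Ndufb2, Uqcr10, Uqcrh, Uqcrq, Cox4i1 and Cox6a2. Their share of the members tested was near the 9.02% of all genes called higher there.

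Some core enzymes were called lower in microglia at day 7 and others were not. Sdha, the flavoprotein of complex II that oxidises succinate, had 104, 98.8, 73.4 and 59.7 CPM in microglia. Sdhb, its iron-sulphur partner, had 143, 223, 197 and 167 CPM. Sdha was called lower at day 7 and Sdhb was called in neither direction there. Ndufs1, the largest core subunit of complex I, had 24.8, 31.2, 18.7 and 14.4 CPM, and Ndufv1, which binds NADH, had 52.0, 66.7, 48.8 and 34.3 CPM. Uqcrc2, a core protein of complex III, had 103, 124, 112 and 68.2 CPM. Ndufs1, Ndufv1, Ndufa9, Uqcrc2, Sdha, Cox6b2, Ndufaf1, Ndufaf4 and Ndufaf7 are the 9 members called lower at day 7, 9 of 88 where 43.1% of all genes were lower. Under TMM factors the log2 ratios of Ndufa9, Ndufv1 and Uqcrc2 turn to 0.035, 0.048 and 0.061, so their direction at day 7 holds only on the CPM scale, and none of the 9 is called lower there. Atp5b, the catalytic beta subunit of the ATP synthase, and Atp5a1, the alpha subunit beside it, were not among them. Atp5a1 and Atp5b had 224, 388, 312 and 197 CPM and 406, 817, 482 and 331 CPM, both higher at day 1 alone.

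The same members can be followed across classes. Sdha had 111, 72.6, 82.3 and 59.6 CPM in macrophages, 145, 111, 109 and 95.6 CPM in endothelial cells and 230, 138, 153 and 123 CPM in ependymal cells. In all 4 classes its lowest level was that of day 7, where it was called lower. Under TMM factors it was past 1.5-fold at day 7 in ependymal cells alone. Atp5g3 had 140, 167, 375 and 237 CPM in macrophages, 146, 183, 293 and 283 CPM in endothelial cells and 162, 172, 335 and 352 CPM in ependymal cells, higher at days 3 and 7 than in the intact library in each. Atp5g1 had its highest level at day 1 in all 4 classes, with 527 CPM in macrophages, 440.5 CPM in endothelial cells and 425 CPM in ependymal cells. Cox7a2l, which helps complexes III and IV assemble together, had 534, 185, 697 and 529.6 CPM in microglia and 407, 176, 679.5 and 487 CPM in endothelial cells. It had 417, 204, 347 and 500.4 CPM in macrophages and 228, 186, 521 and 294 CPM in ependymal cells. Day 1 was its lowest library in all 4 classes. Since every class of a time point comes from 1 library, a gene that moves alike in all of them cannot be told apart from a difference of that library.

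**Figure D3:**
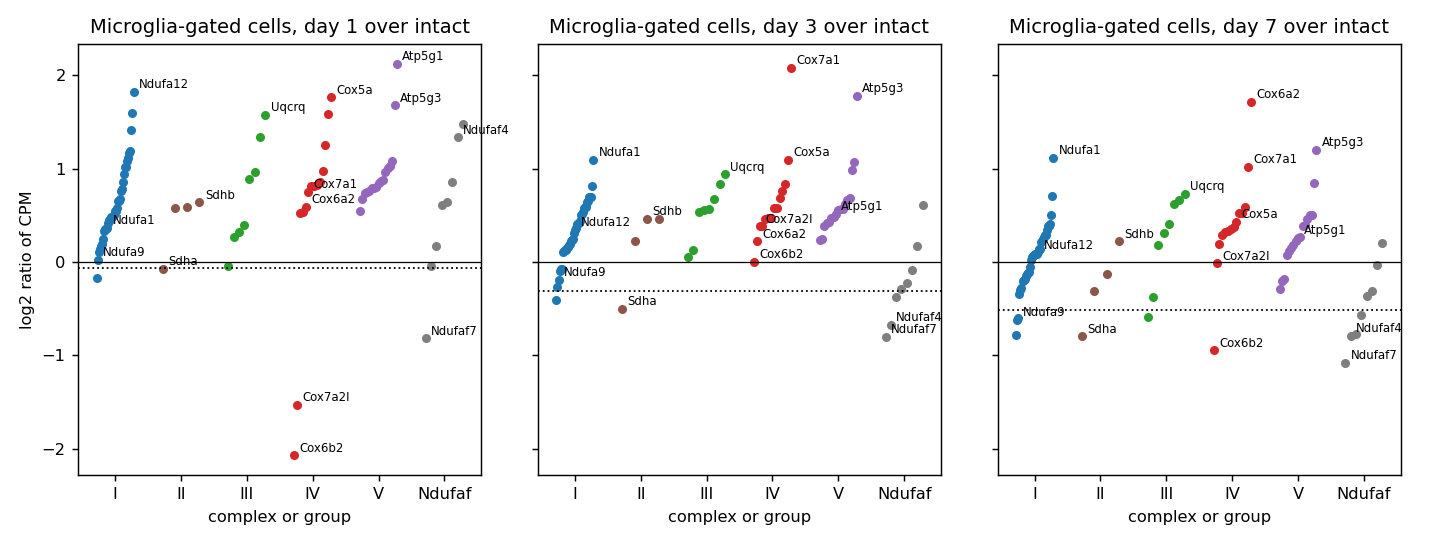
Log2 ratio of CPM to the intact library in microglia-gated cells at days 1, 3 and 7 (y axis) for each tested member, ordered by ratio within its complex or the Ndufaf group (x axis), with the median over all genes as a dotted line; the Ndufa4 pair is left out. Most members lie above the dotted line, with Atp5g1 at the top at day 1 and Cox7a2l and Cox6b2 at the bottom.

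The other lineages had fewer calls. Macrophages or monocytes had 3 of 89 members higher and 8 lower at day 1, against 7.77% and 12.2% of all genes. At day 3 they had 6 of 88 higher and 3 lower, against 5.04% and 15.2%, and at day 7 they had 3 of 85 higher and 5 lower, against 4.79% and 20.8%. Their median log2 ratios of -0.02, 0.05 and -0.21 stood beside -0.03, -0.19 and -0.38 over all genes. Their summed log2 ratios of -0.01 at day 1 and -0.14 at day 7 turn with the scaling, to 0.36 and 0.53 under TMM factors. The counts turn too, to 21, 41 and 27 members higher and 3, 0 and 1 lower under TMM factors at days 1, 3 and 7. The balance of calls in macrophages thus depends on the scaling, and the shares of all genes were not counted under TMM factors. Ndufa4 had 528, 294, 284 and 224 CPM in them. This fall rests on the 56 intact cells. Endothelial cells had 8 of 88 higher and 4 lower at day 1, against 20.9% and 20.1%, then 7 higher and 0 lower against 11.3% and 18.6%, then 2 higher and 1 lower against 6.72% and 12.9%. Ndufa7, an accessory subunit of complex I, had 835, 333, 764 and 855 CPM in endothelial cells, lowest at day 1. Ependymal cells had 2 of 85 higher and 7 lower at day 1, against 15.9% and 21.1%, then 4 and 4 against 11.0% and 12%, then 5 and 2 against 7.61% and 9.58%. Their summed log2 ratio of -0.04 at day 1 turns to 0.045 under TMM factors.

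Over all phagocytes together, the gate that holds microglia and macrophages, 41 of 89 members were higher and 3 lower at day 1, against 22.1% and 31.3% of all genes. At day 3 they were 31 and 1 of 90, against 14.3% and 38.0%, and at day 7 they were 8 and 7 of 89, against 8.77% and 45.2%. Under TMM factors the counts were 74 higher and 0 lower at day 3 and 62 higher and 0 lower at day 7. The shares of all genes were not counted under these factors. The sum was 17911, 27639, 26163 and 21507 CPM. The intact phagocytes were 803 microglia of 868 cells and those of day 1 were 1346 of 4193. The mixed sum therefore combines a change within microglia with a change in which cells are phagocytes, and these cannot be told apart from the sum alone.

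In microglia the summed level of subunits encoded in the mitochondrial genome moved less than the nuclear sum, while single mitochondrial genes moved in both directions. Their sum had log2 ratios of 0.11, 0.43 and 0.12 at days 1, 3 and 7. Of the 13 genes, 1 was higher and 2 lower at day 1, 3 and 3 at day 3, and 1 and 3 at day 7. Among all genes tested, 25.4% were higher and 29.2% lower at day 1. The shares were 14.3% and 32.9% at day 3 and 9.02% and 43.1% at day 7. mt-Co1, the catalytic subunit of complex IV, had 2623, 3129, 4503 and 3961 CPM, and mt-Nd4l, a small complex I subunit, had 176, 69.5, 58.1 and 78.0 CPM. The ratio of mitochondrially encoded to nuclear UMIs was 1.28 in intact microglia, 0.811 at day 1, 1.21 at day 3 and 1.15 at day 7. Ependymal cells had 2.18, 1.68, 1.91 and 1.77.

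Genes around the chain also changed in microglia, and their counts are to be read against the shares of all genes called higher and lower there, which were 25.4% and 29.2% at day 1, 14.3% and 32.9% at day 3 and 9.02% and 43.1% at day 7. Of 11 carriers and channels tested, 5 were higher and 0 lower at day 1, 2 and 0 at day 3, and 1 and 1 at day 7. Cycs, cytochrome c, had 157, 569, 143 and 140.0 CPM, higher at day 1 alone, as Atp5g1 was. Ucp2, an uncoupling protein of immune cells, had 231, 378, 553 and 406 CPM. Of 27 other assembly factors tested, 9 were higher and 3 lower at day 1, a share not far above that of all genes. Of 13 citric acid cycle enzymes, 8 were higher and 0 lower at day 1, 1 and 0 at day 3, and 0 and 4 at day 7, where the share lower is below that of all genes. Of 15 glycolytic genes, 10 were higher and 3 lower at day 1, and Ldha, which makes lactate, had 247, 1063, 404 and 282 CPM. At day 1, then, both respiratory and glycolytic genes were higher in these cells. In macrophages at day 1, 11 of 15 glycolytic genes and 5 of 5 hypoxia-responsive genes of respiration were higher, beside 3 of the 89 members and 7.77% of all genes. These counts are on the CPM scale. More members were higher under TMM factors, as given above, and the other lists were not counted under them. The intact gate holds 56 cells and that of day 1 holds 2501, so a gene can reach 50 UMIs through day 1 alone. Whether both gates hold the same kinds of macrophage or monocyte was not tested. Of 8 regulators tested, 3 were higher and 1 lower in microglia at day 1, and 1 was higher and 6 lower at day 7. Tfam, which packages and transcribes mitochondrial DNA, had 23.4, 23.9, 17.2 and 11.5 CPM.

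Several isoforms of complex IV, and Ndufa4l2, differed between classes. Ndufa4l2, a hypoxia-induced paralog of Ndufa4, had 1193, 1395 and 1146 CPM in pericytes or smooth muscle at days 1, 3 and 7. In endothelial cells of the same libraries it had 31.4, 41.9 and 13.6 CPM, ratios of 38.0 (29.3 to 49.0), 33.3 (28.7 to 38.6) and 84.4 (60.5 to 119). Microglia had 1.26 to 2.67 CPM. The gate for pericyte or smooth muscle had its own list at 20200, 25151 and 24977 CPM and the endothelial list at 1291, 1489 and 1146 CPM. Cox4i2, the hypoxia-associated form of subunit 4, had 576, 463 and 638 CPM in pericytes and 15.0, 16.2 and 10.3 CPM in endothelial cells. Ndufa4 itself had 126, 451 and 370.5 CPM in pericytes. Cox8a, the widely expressed form of subunit 8, had 1334, 2078 and 2429.6 CPM in pericytes and 686, 738 and 700.3 CPM in endothelial cells, ratios of 1.94, 2.82 and 3.47. Ndufa4l2, Cox4i2 and Cox8a were thus above the endothelial level in every library in which pericytes were measured.

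Cox6a2, the heart and muscle form of subunit 6a, was higher in microglia than in macrophages in every injured library. Microglia had 21.6, 32.5, 25.2 and 71.0 CPM in the intact, day 1, day 3 and day 7 libraries, and macrophages had 25.5, 5.72, 8.36 and 16.8 CPM. All 6 UMIs of the intact macrophages lay in 1 cell. The ratios at days 1, 3 and 7 were 5.69 (4.46 to 7.34), 3.02 (2.61 to 3.50) and 4.22 (3.46 to 5.21). The injected cords gave 21.0 CPM in microglia and 1 UMI in macrophages after PBS, and 18.6 CPM and 4 UMIs after MPSS, where the ratio was 17.1 (6.44 to 64.4). Endothelial cells, which serve here as a class without this muscle form, had 0.248 to 1.36 CPM in the time course. Ndufa4 was at 0.46 of the macrophage level in intact microglia, then at 1.85, 1.46 and 1.21, and at 1.64 and 1.53 in the PBS and MPSS libraries.

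Other isoforms had class patterns of their own. Ependymal cells had Cox6b2, known from testis, at 64.7, 56.8, 56.4 and 48.2 CPM, beside 2.48 to 5.37 CPM in endothelial cells. It was not particular to them, since astrocytes had 62.1 CPM at day 1 and 150.3 CPM at day 3, oligodendrocyte precursors had 113 CPM at day 3 and pericytes had 168 CPM at day 1 from 12 UMIs. Cox7a1, the heart and muscle form of subunit 7a, had 45.5 CPM in intact ependymal cells, 2.84 at day 1 from 3 UMIs, 11.0 at day 3 and 74.0 at day 7. In macrophages it had 15.9, 20.6 and 7.77 CPM at days 1, 3 and 7, 5.33, 2.75 and 2.16 times the microglial level. Oligodendrocyte precursors had Ndufa4 at 1146, 1101, 1290 and 1353 CPM, 1.91, 1.82, 2.15 and 2.26 times the endothelial level. In the MPSS library, whose levels are not compared with the time course, they had 1633 CPM, 2.23 times the endothelial level, in 36 precursors and 32 endothelial cells.

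**Figure D4:**
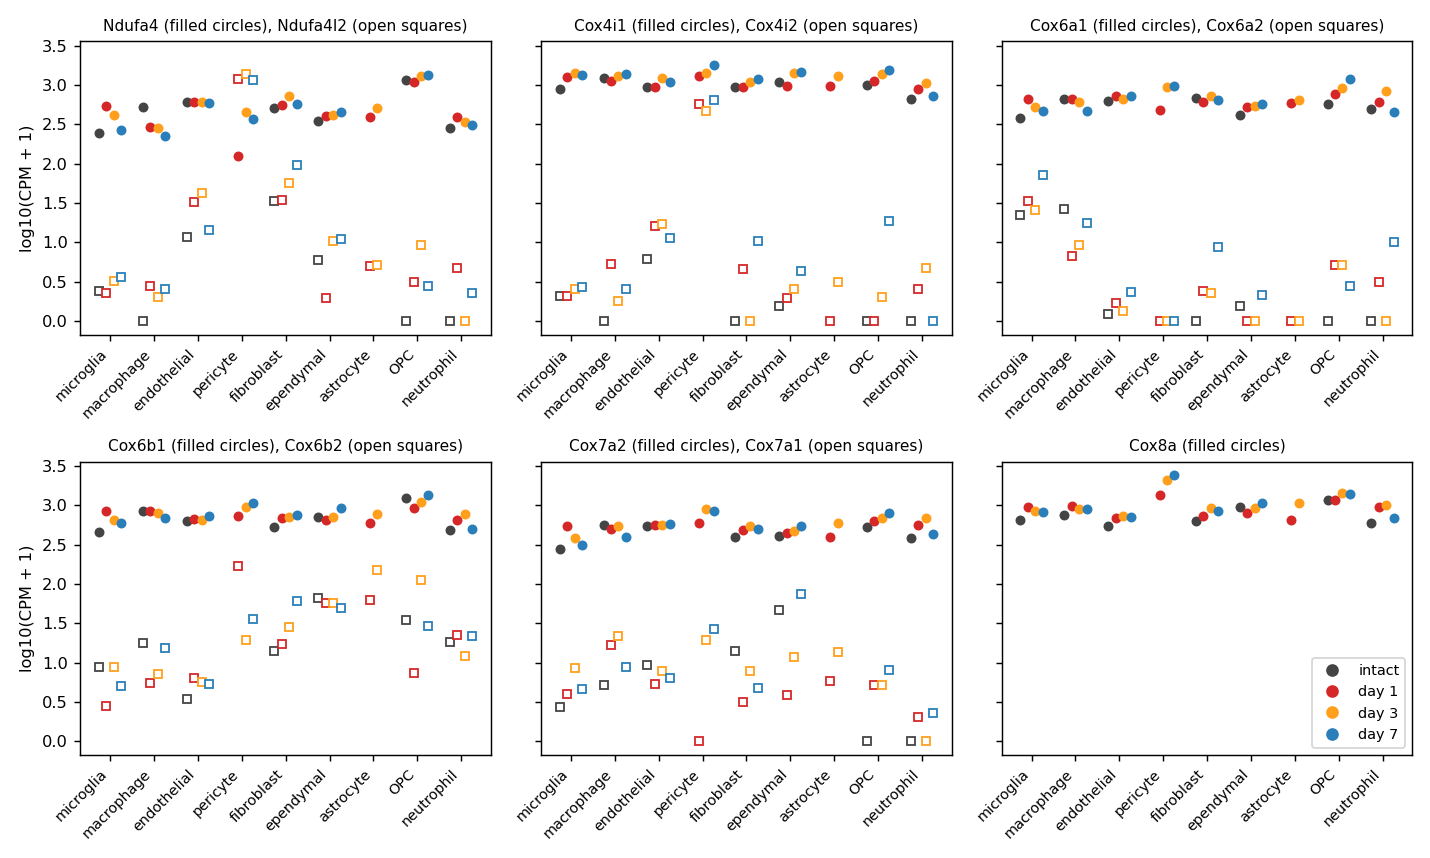
Levels of isoforms and paralogs as log10(CPM + 1) (y axis) in 9 marker-gated classes of the time course (x axis), with 1 point a library and a class shown where it had at least 20 cells. The open squares of Ndufa4l2 and Cox4i2 are high in pericytes, those of Cox6a2 are higher in microglia than in macrophages after injury, and those of Cox6b2 are high in ependymal cells and astrocytes.

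Injection of MPSS left the summed member level close to that of PBS in every class with enough cells. In phagocytes it was 27597 CPM after PBS and 27782 after MPSS, a ratio of 1.01 (1.00 to 1.01). The ratio was 1.02 in microglia, 1.01 in macrophages, 0.987 in other phagocytes, 0.989 in fibroblasts, 1.05 in oligodendrocytes and 1.05 in Schwann cells. In the injected cords the microglia gate rests on a microglia list of 435 and 463 CPM and a macrophage list of 79.8 and 88.2 CPM. In phagocytes 1 of 86 members was higher and 0 lower, against 1.74% and 3.67% of all genes, and in microglia 1 of 85 and 0, against 2.60% and 3.35%. Both calls were Cox6b2, at 6.09 and 10.1 CPM in phagocytes after PBS and MPSS. Macrophages had 1 of 82 higher and 0 lower against 4.02% and 3.61%, other phagocytes 0 and 2 of 84 against 1.69% and 4.69%, and oligodendrocytes 0 and 0 of 84 against 2.02% and 4.06%. Schwann cells had 2 of 75 higher and 1 lower, against 3.30% and 4.24%. The macrophage call was 1 of 2 rows named Uqcrb, at 9.14 and 19.8 CPM, and reads of such copies may be split between rows. Those of other phagocytes were Ndufc1, at 85.2 and 55.7 CPM, and Ndufaf4, at 10.3 and 6.05 CPM. In Schwann cells Ndufs4 and Ndufa6 were the higher members and 1 of 2 rows named Ndufv3, at 143 and 90.6 CPM, the lower one. In each of these classes the shares are below those of all genes.

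Fibroblasts, which form the scar, had 1 of 80 members higher and 1 lower, against 2.85% and 5.30% of all genes. The gene called higher was Ndufa4l2, with 39.8 CPM after PBS and 159 CPM after MPSS, a ratio of 3.99 (2.95 to 5.49). A single cell held 116 of its 274 UMIs after MPSS, and another held 16 of its 51 UMIs after PBS. A UMI of Ndufa4l2 was found in 22 of 95 fibroblasts after PBS and in 33 of 128 after MPSS. Without the top cell of each library the levels were 27.6 and 92.9 CPM, a ratio of 3.36. Endothelial-gated cells had 2 UMIs of Ndufa4l2 after PBS and 19 after MPSS, 84% of the latter in 1 cell. The pericyte list in the fibroblasts was 387 CPM after PBS and 335 after MPSS, beside a fibroblast list of 29419 and 26860.2 CPM. The part of pericyte RNA was not tested further. The gene called lower was Ndufc1, a small accessory subunit of complex I, at 125 and 60.3 CPM. In phagocytes Ndufc1 had 89.3 and 61.8 CPM and Ndufa4 had 418 and 480.1 CPM, neither past 1.5-fold.

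**Figure D5:**
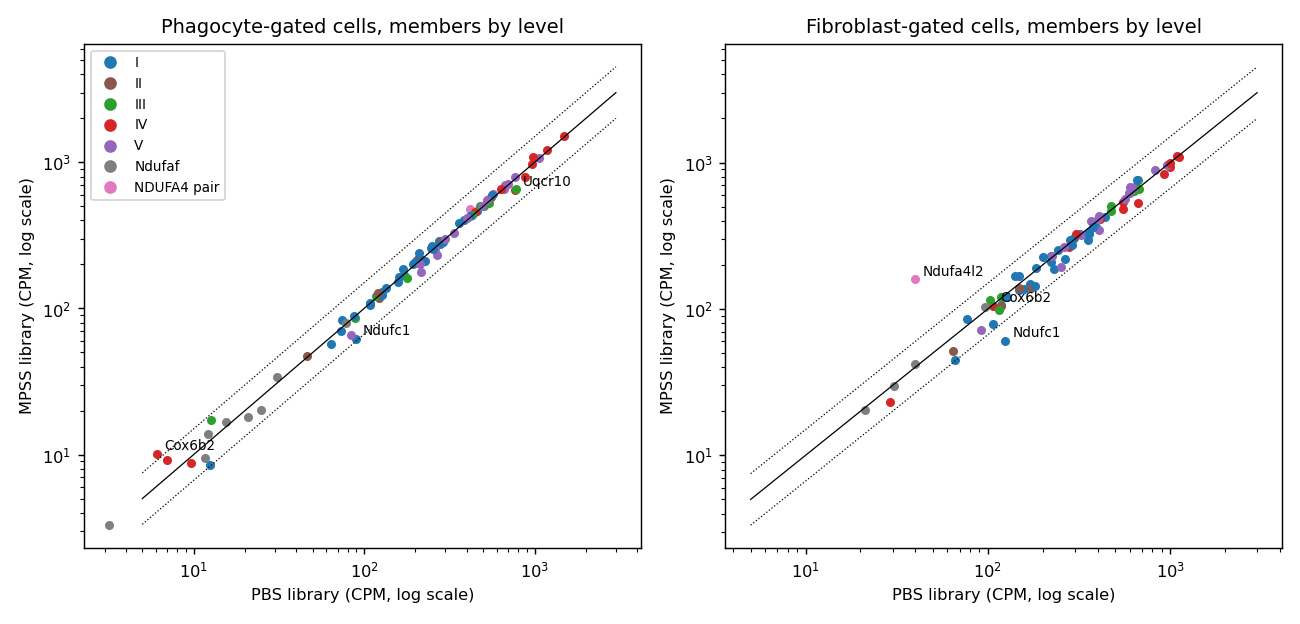
Level of each member in the PBS library (x axis, CPM, log scale) and the MPSS library (y axis, CPM, log scale) in phagocyte-gated and fibroblast-gated cells, coloured by complex, with a line at equal levels and dotted lines at 1.5-fold. Most points lie between the dotted lines, and Ndufa4l2 in fibroblasts, at 39.8 and 159 CPM, is the farthest above them.

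The bases before the members' start sites were read for 4 motifs known from this gene family, whether or not a member changed in any class. RefSeq promoters of build GRCr8 were found for 83 of the 93 names, and the 250 bases before each start were searched on both strands. The motif of NRF1, the regulator of many respiratory genes, was searched by its inner letters CGCATGCG and was found in 9 of 83 members (10.8%) and in 492 of 33469 RefSeq promoters (1.47%). The motif of GABP was searched as CCGGAAG and was found in 22 members (26.5%) and in 7.27% of all promoters. The YY1 letters AAGATGGC were in 2 members (2.41%) and 1.63% of all, and the hypoxia-response letters ACGTG were in 20 members (24.1%) and 16.6% of all. The NRF1 letters were shortened after a first search with a longer form had found fewer matches. A match describes letters in a window and is not a measured site, and any link to the changes in microglia was not tested. Below are the stretches of 5 members, 5′ to 3′ on the gene's strand, with the matches to any of the 4 motifs in capitals. Ndufa11 lies at chr9:1637364-1637613 on the + strand and shows 2 overlapping NRF1 matches. Atp5k (Atp5me in RefSeq), at chr14:1464610-1464859 on the + strand, holds all 4 motifs. Cox8a, at chr1:213833624-213833873 on the - strand, holds 2 GABP matches and 1 hypoxia-response match. Ndufa4, at chr4:40975560-40975809 on the - strand, and Ndufa4l2, at chr7:65241919-65242168 on the + strand, are shown as the paralog pair of which Ndufa4l2 was high in pericytes, and neither holds any of the 4.
Ndufa11: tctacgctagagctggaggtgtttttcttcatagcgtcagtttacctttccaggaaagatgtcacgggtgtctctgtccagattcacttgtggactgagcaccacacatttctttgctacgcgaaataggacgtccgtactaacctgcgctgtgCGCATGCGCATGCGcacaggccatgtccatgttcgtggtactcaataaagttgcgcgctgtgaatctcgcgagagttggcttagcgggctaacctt
Atp5k: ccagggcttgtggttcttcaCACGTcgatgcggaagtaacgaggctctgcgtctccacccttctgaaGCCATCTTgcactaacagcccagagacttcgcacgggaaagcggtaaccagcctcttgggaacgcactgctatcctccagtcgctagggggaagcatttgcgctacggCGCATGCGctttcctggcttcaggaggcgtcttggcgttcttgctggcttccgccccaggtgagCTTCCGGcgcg
Cox8a: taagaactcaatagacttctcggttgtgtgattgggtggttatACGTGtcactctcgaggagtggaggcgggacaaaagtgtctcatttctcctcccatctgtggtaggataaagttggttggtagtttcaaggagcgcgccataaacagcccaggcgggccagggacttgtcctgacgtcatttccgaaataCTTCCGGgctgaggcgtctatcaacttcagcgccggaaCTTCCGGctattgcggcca
Ndufa4: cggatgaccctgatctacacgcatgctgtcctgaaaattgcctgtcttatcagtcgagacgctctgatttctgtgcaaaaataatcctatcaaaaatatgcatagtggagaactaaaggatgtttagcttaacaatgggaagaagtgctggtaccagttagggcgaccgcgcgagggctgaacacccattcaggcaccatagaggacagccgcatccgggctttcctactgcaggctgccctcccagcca
Ndufa4l2: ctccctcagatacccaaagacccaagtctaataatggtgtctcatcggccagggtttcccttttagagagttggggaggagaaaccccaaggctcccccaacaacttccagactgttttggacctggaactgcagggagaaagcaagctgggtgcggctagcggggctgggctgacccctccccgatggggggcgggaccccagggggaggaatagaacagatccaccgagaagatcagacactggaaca

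The NRF1 letters were found before Atp5g2, Atp5j, Atp5k, Atp5l and Atp5o of complex V, Ndufa11 of complex I, Uqcrc1 of complex III and the assembly factors Ndufaf4 and Ndufaf5. In Ndufa11 the matches begin 96 and 90 bases before the start, and in Atp5k the match begins 75 bases before it. Sdhb, Sdhd and Ndufs1 held GABP letters, while Sdha, Cox6a2 and Cox7a1 held none of the 4 motifs in this window.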

How the data were processed

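Per the labels, the libraries were made with 10x Genomics 3′ kits. Cell Ranger 3.0.2 is named in the submitters' processing notes and 3.1.0 in the headers of the injected-cord files, with no genome build given in the sources used here. The deposited values are raw UMI counts per gene and cell. Cells below 200 genes or 500 UMIs, or above 20% mitochondrial UMIs, were dropped, and doublets were not called. A cell joined a class with 3 of its markers detected, a score of at least 0.1 (the mean scaled marker level) and a lead of 1.25 over the next class, and phagocytes were split likewise with 2 markers. Gene names not shared by the 4 time-course tables were left out. Counts were summed per class and library (Python 3.11.15, scipy 1.17.1) and the counting code was tested on simulated data. Scaling alternatives used edgeR 4.0.16. Alternatives changed the scaling, cell filters, gates and gene filters. Members and lists were chosen with earlier results of these data known. Named members are the 5 with the highest and lowest ratios in a comparison, isoforms and core enzymes; others named were chosen after their values were seen. The NRF1 letters were shortened from a longer form of the motif after a first search, which had found fewer matches in members and in all promoters.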

Additional observations from a re-analysis of the deposited data

Results flagged for a closer look

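Some members were past 1.5-fold in opposite directions at different times, all against the 1 intact library, and the difference between times was not tested. Ndufaf4, an assembly factor of complex I, had log2 ratios of 1.34 at day 1, -0.67 at day 3 and -0.79 at day 7 in microglia, and of 0.90 at day 1 and -0.77 at day 7 in all phagocytes. TMM shifts of 0.50 and 0.65 at days 3 and 7 in microglia and 0.69 at day 7 in phagocytes bring the negative ratios within 1.5-fold, so the opposite calls of Ndufaf4 hold only on the CPM scale. Its microglial levels were 26.5, 67.1, 16.7 and 15.3 CPM in the intact, day 1, day 3 and day 7 libraries. Cox7a2l had log2 ratios of -1.21 at day 1 and 0.74 at day 3 in endothelial cells. Cox7a1 had log2 ratios of -4.00 at day 1, -2.05 at day 3 and 0.70 at day 7 in ependymal cells, and the day 1 value rests on 3 UMIs.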

How the results depend on the processing

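No paired analysis was possible because each group is 1 library, and for the same reason no replicate could be left out. The summed log2 ratios, as reported for days 1, 3 and 7, were 0.63, 0.55 and 0.26 in phagocytes, 0.77, 0.51 and 0.28 in microglia, -0.01, 0.10 and -0.14 in macrophages, 0.05, 0.17 and 0.15 in endothelial cells and -0.04, 0.09 and 0.28 in ependymal cells, and 0.01 for MPSS against PBS in phagocytes. Across all settings, 148 summed member levels and counts of members moved, 5 turned direction and 263 did neither. A sum moved when it left its counting interval, and a count when it changed more than 1.5 times. Counts under the alternatives are of members only, and the shares of all genes were not counted beside them. Among the cell filters, the depth window moved summed member levels that far, and leaving out the deepest cells moved that of MPSS, both as given below. The remaining cell filters, other gates and leaving out the assembly factors moved no summed member level that far. Among sums of single complexes and named genes, 542 values moved, 10 turned direction and 1896 did neither. Under TMM factors the sums were 1.06, 1.18 and 0.95 in phagocytes, 1.14, 1.01 and 0.93 in microglia, 0.36, 0.63 and 0.53 in macrophages, 0.15, 0.37 and 0.33 in endothelial cells, 0.045, 0.13 and 0.31 in ependymal cells, and 0.036 for MPSS. Members called higher were then 71, 74 and 62 in phagocytes, 73 and 59 in microglia at days 3 and 7, 21, 41 and 27 in macrophages, 14 and 5 in endothelial cells at days 3 and 7, and 4 in ependymal cells at day 1. Members called lower were 0 in phagocytes and microglia at days 3 and 7, 3, 0 and 1 in macrophages, and 0 in endothelial cells at day 7. Median-of-ratios factors gave 1.08, 1.20 and 0.98 in phagocytes, 1.14, 1.02 and 0.94 in microglia, 0.35, 0.60 and 0.52 in macrophages, 0.15, 0.37 and 0.33 in endothelial cells, 0.088 and 0.14 in ependymal cells at days 1 and 3, and 0.040 for MPSS. Their counts of members called higher were 72, 74 and 64 in phagocytes, 73 and 59 in microglia, 21, 40 and 26 in macrophages, 14 and 5 in endothelial cells and 4 in ependymal cells, with the lower calls as under TMM. The sums of macrophages at day 7 and of ependymal cells at day 1 thus turned direction. That of macrophages at day 1 also changed sign, under both factors and after thinning, but its interval spans 0 as reported and it is counted as moved. So did single genes at day 7: under TMM and median-of-ratios factors Ndufv1 had 0.076 and 0.11 in phagocytes and 0.048 and 0.064 in microglia, Ndufa9 had 0.035 and 0.051 and Uqcrc2 0.061 and 0.077 in microglia, and Ndufs4 had 0.059 and 0.046 in macrophages.

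With mitochondrially encoded and ribosomal protein genes left out of the total, the sums were 0.71, 0.62 and 0.36 in phagocytes, 0.91, 0.65 and 0.38 in microglia, 0.10, 0.31 and 0.21 in endothelial cells, 0.058, 0.16 and 0.31 in ependymal cells, the first of which turned direction, and 0.020 for MPSS. Members called higher were 16 in phagocytes at day 7, 44 and 14 in microglia at days 3 and 7, 13 in endothelial cells at day 3 and 4 in ependymal cells at day 1, and members called lower were 1 in microglia at day 3 and 0 in endothelial cells at day 7. Among cells of 2000 to 6000 UMIs, a choice made after seeing the data, the sums were 0.48, 0.37 and 0.20 in phagocytes, 0.81, 0.24 and 0.22 in microglia, 0.037 in macrophages at day 3, 0.077, 0.15 and 0.13 in endothelial cells and 0.023 for MPSS. The alternatives for microglia and macrophages were also added after seeing the data. Averaging each cell's share gave 0.64 and 0.28 in phagocytes at days 1 and 7, 0.83 and 0.49 in microglia at days 1 and 3, -0.084 in macrophages at day 7, 0.14 and 0.17 in endothelial cells at days 3 and 7, and 0.054 for MPSS. Thinning cells to 1000 UMIs gave 0.64 in phagocytes at day 1, 0.84, 0.48 and 0.26 in microglia, 0.045, 0.14 and -0.069 in macrophages, 0.14 and 0.17 in endothelial cells at days 3 and 7, -0.016 in ependymal cells at day 1, and 0.034 for MPSS. Leaving out cells above the 99th percentile of UMIs gave 0.019 for MPSS. A 2-fold threshold left 12, 6 and 4 members higher in phagocytes with 1 lower at day 7, and 22, 5 and 3 higher in microglia with 0 and 1 lower at days 3 and 7. In macrophages it left 0, 1 and 0 higher and 3, 1 and 2 lower, in endothelial cells 4, 3 and 0 higher with 2 and 0 lower at days 1 and 7, and in ependymal cells 0, 2 and 1 higher and 2, 1 and 1 lower, with 0 higher for MPSS. Asking for 200 UMIs left 1 member higher in endothelial cells at day 7, 3 higher in ependymal cells at day 7 with 3, 2 and 1 lower, and 0 higher for MPSS. Beyond what each setting leaves out by construction, the cause was not tested. Depth limits members under a few CPM, and the macrophage ratios rest on 5998 intact UMIs of the members.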
